A study of Mus musculus with 4 samples.

Results

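LSD1 peaks were examined along a 4 Mb stretch of mouse chromosome 1, chr1:135000001-139000000 in build mm9, in which several muscle genes lie, among them Mybph, Csrp1, Tnni1, Tnnt2 and Cacna1s. Its members are all peaks of the deposited lists whose midpoint falls in the stretch, apart from those in an interval of 103 kb around Myog that begins 1.136 Mb into the stretch. By this rule the stretch held 233 of the 44039 peaks of the day 2 list and 75 of the 17446 peaks of the day 5 list. The interval left out held another 14 day 2 peaks and 2 day 5 peaks.

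The lists come from ChIP-seq of C2C12 cells, an established mouse myoblast line that stops dividing and forms myotubes in low serum. Cells were grown in DMEM with 25 mM glucose and 10% fetal bovine serum and then kept in the same basal medium with 2% horse serum for 48 h (day 2, labelled differentiating) or 120 h (day 5, labelled differentiated). The series has 4 libraries, an LSD1 precipitate made with a polyclonal antibody and an input for each day, with 1 library per group. Without replicates, no difference between the days can be set against a spread between cultures, and no p-value is given. The depth behind each list is unknown, since no read totals and no inputs were used here, and numbers, widths and scores of peaks may follow depth as well as LSD1. The stretch was chosen by position, with the numbers of day 2 and day 5 peaks in its windows already known, so those numbers are given as a description.

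LSD1, the product of Kdm1a, is a demethylase of histone H3 that works in repressor complexes such as CoREST and has also been tied to activation by transcription factors. In muscle cells it is known as a cofactor at genes that switch on during differentiation. Mybph encodes myosin binding protein H of the thick filament, and Tnni1 and Tnnt2 encode the slow skeletal troponin I and the cardiac troponin T, which control the thin filament. Csrp1 encodes a LIM-domain protein of the actin cytoskeleton, and Cacna1s the voltage sensor of the skeletal muscle calcium channel. In the RefSeq annotation of GRCm38.p6, 36 protein-coding genes follow each other from Mybph to Cacna1s. Adora1, an adenosine receptor gene, and Myog come next after Mybph. Kdm5b, a demethylase of histone H3, Ppp1r12b, a subunit of myosin phosphatase, and Lmod1, an actin nucleator of smooth muscle, come later. Csrp1, Phlda3, Tnni1, Lad1 and Tnnt2 are neighbours in that order, followed by Pkp1, Igfn1, Tmem9, Ascl5 and Cacna1s. That assembly is not the build of the peak lists, no coordinates were converted, and so no peak is assigned to a gene.

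The promoters of the muscle genes named above are shown because they are the regulatory sequences the stretch is described by. Each runs from 250 bases before to 50 after the gene's start as RefSeq gives it on GRCm38.p6 (300 bases, plus strand of chromosome 1, 5′ to 3′ in the direction of the gene, the first entry where a gene has more than 1). Sequences of the peaks themselves are not shown, since no mm9 genome was used. Capitals mark CAGCTG and CACCTG (or its complement CAGGTG), the E-box cores preferred by myogenic factors such as MyoD and myogenin.
Mybph: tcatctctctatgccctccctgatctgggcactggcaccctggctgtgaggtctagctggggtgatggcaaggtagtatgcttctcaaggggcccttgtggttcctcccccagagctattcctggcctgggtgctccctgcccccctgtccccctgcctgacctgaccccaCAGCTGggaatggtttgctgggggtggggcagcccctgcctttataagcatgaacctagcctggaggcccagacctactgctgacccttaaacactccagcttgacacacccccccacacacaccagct
Csrp1: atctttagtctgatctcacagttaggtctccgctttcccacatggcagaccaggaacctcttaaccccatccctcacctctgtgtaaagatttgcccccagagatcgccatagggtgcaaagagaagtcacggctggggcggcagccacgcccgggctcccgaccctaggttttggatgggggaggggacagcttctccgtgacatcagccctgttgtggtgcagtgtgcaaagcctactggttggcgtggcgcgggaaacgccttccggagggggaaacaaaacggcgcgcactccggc
Tnni1: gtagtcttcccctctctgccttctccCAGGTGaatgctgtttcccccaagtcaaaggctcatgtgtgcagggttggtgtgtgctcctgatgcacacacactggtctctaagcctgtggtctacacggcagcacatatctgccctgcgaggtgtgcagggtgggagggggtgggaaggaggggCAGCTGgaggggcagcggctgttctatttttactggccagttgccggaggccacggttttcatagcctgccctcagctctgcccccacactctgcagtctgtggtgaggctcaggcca
Tnnt2: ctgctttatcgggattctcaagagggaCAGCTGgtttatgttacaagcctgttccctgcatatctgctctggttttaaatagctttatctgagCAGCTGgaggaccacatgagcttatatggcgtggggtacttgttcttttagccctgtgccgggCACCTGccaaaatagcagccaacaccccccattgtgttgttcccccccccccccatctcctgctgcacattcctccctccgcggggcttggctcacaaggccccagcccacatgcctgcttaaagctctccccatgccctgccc
Cacna1s: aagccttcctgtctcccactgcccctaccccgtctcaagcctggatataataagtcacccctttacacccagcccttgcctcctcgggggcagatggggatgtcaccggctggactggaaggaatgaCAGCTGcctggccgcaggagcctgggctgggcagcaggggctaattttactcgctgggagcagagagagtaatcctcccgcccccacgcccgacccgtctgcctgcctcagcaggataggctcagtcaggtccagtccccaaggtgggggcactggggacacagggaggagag
CAGCTG was found in 4 of these 5 promoters (Mybph, Tnni1, Tnnt2 and Cacna1s). It was in 9 of the 35 promoters matched from Mybph to Cacna1s, against 16.1% of all 27025 promoters. The 35 include the 5, here and for the motifs below, so the 9 include the 4 just named. CACCTG, read on both strands, was found in Tnni1 and Tnnt2 among the 5, in 6 of the 35 and in 20.03% of all. GGAATG, the core of the MCAT element bound by TEAD factors, was found on either strand in Mybph, Tnnt2 and Cacna1s, in 15 of the 35 and in 14.6% of all. The wider pattern CANNTG, which includes both E-box cores, was in all 5, in 21 of the 35 and in 72.2% of all. A loose form of the SRF site, CC and GG parted by any 6 bases, was in all 5, in 31 of the 35 and in 73.0% of all, and the AP-1 motif TGANTCA in none of the 5, in 4 of the 35 and in 7.93% of all. These matches describe the printed letters, and whether an LSD1 peak covers any of them was not tested.

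LSD1 peaks were dense over the stretch on both days. Day 2 had 59.8 peaks per Mb here against 14.9 over the rest of chromosome 1, a ratio of 4.01. Day 5 had 19.2 per Mb against 5.84, a ratio of 3.29. Among 638 blocks of 4 Mb cut on the same grid through the genome, this one, with the interval around Myog counted in, took place 7 by day 2 peaks (247, median block 57) and place 29 by day 5 peaks (77, median block 21). Day 2 peaks covered 168 kb or 4.30% of the stretch, and day 5 peaks 29.8 kb or 0.764%. The number of day 2 peaks per day 5 peak was 3.11 in the stretch, 2.55 in the rest of chromosome 1 and 2.52 in the whole lists. In covered length the ratio of day 2 to day 5 was 5.62 in the stretch, with mean widths of 719 and 397 bp, and 5.21 in the whole lists, with mean widths of 774 and 375 bp.

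**Figure D1:**
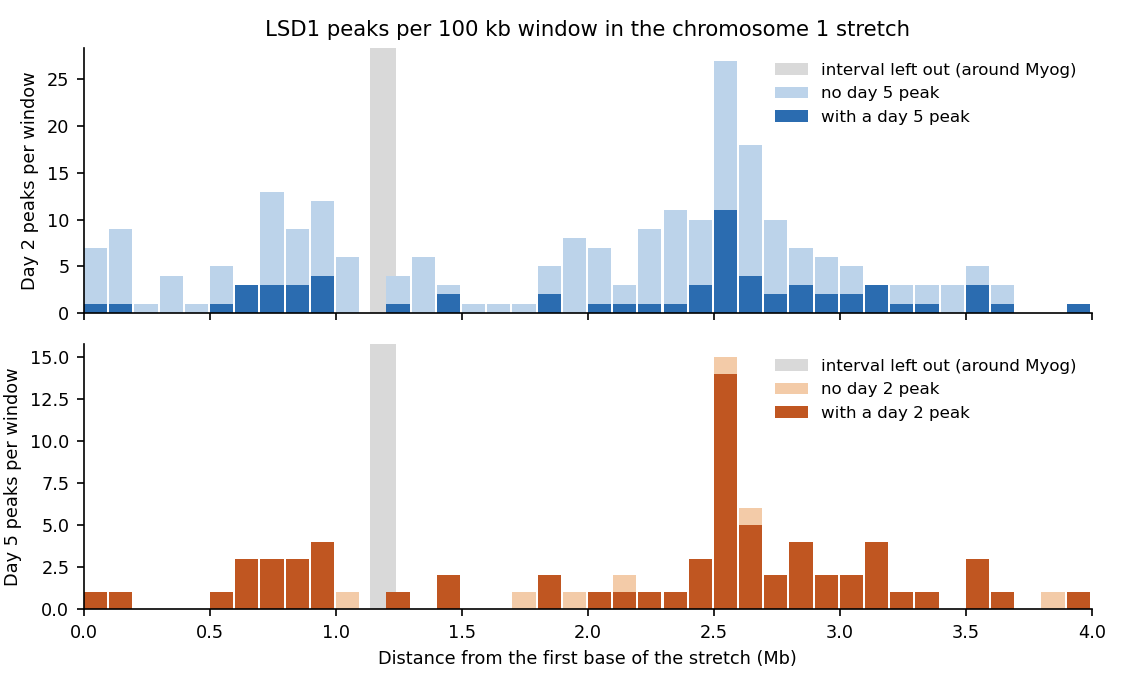
Number of LSD1 peaks in each 100 kb window of the chromosome 1 stretch at day 2 (top) and day 5 (bottom), by distance from the first base of the stretch in Mb. Dark bars are peaks that overlap a peak of the other day, pale bars those that do not, and the grey band is the interval left out. The highest bar on both days is the same window, with 27 day 2 and 15 day 5 peaks.

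Peaks fell into 2 dense parts, one on each side of the interval around Myog, with sparser windows between and beyond. Of the 40 windows of 100 kb, 37 held a day 2 peak and 31 a day 5 peak, with a median of 5 and 1 peaks per window. At least 10 day 2 peaks lay in 7 windows. The fullest was chr1:137500001-137600000 with 27 day 2 and 15 day 5 peaks, which is 11.6% of the day 2 members and 15 of the 75 day 5 members. Next came chr1:137600001-137700000 with 18 and 6, chr1:135700001-135800000 with 13 and 3, chr1:135900001-136000000 with 12 and 4, and chr1:137300001-137400000 with 11 and 1. So 3 of the 5 fullest windows lay above 137 Mb and the others in the last 300 kb below 136 Mb. Together these 5 windows held 34.8% of the day 2 peaks.

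The share of day 2 peaks that met a day 5 peak is given here for the stretch and for each of its megabases. Peaks of both lists that overlapped by at least 1 bp were taken as the same site, and a day 2 peak with such a partner is called kept. Over the stretch 62 of 233 day 2 peaks were kept (26.6%, Wilson 95% interval 21.4 to 32.6, counting error only), against 30.4% of all day 2 peaks. The interval contains the value of the whole list, so the share of the stretch was not distinguishable from it at this number of peaks. With the interval around Myog counted in, the share was 25.5%, place 17 from the lowest among the 158 blocks of 4 Mb with at least 100 day 2 peaks (median block 30.9%). From 135 to 136 Mb 16 of 64 were kept (25.0%, 16.01 to 36.8). From 136 to 137 Mb 5 of 35 were kept (14.3%, 6.26 to 29.4). From 137 to 138 Mb 29 of 108 were kept (26.9%, 19.4 to 35.9), and from 138 to 139 Mb 12 of 26 (46.2%, 28.8 to 64.5). The sparse last megabase thus had the highest share and the second megabase, which holds the interval around Myog, the lowest. Their intervals overlapped slightly, which does not decide whether the shares differ, and a difference between megabases was not tested. If every day 2 peak had been kept at the rate of its score band, a run of 10% of the whole list by score, the 4 megabases would have kept 20.2, 9, 27.5 and 9.47 peaks. As shares these are 31.6%, 25.7%, 25.5% and 36.4%, and each lies inside the interval of its megabase. Intervals treat peaks as independent, which neighbours are not.

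Among members, the day 5 peaks of the second megabase were also the weakest. These 8 had a median score of 57.7 and none above 67.4. The 16 of the first megabase had a median of 125, the 37 of the third 79.1 and the 14 of the last 94.2. The 2 day 5 peaks in the interval left out, which lies in the second megabase, scored higher than these 8, with 90.58 and 73.55. The score of a peak was set by the authors' peak caller on a scale that is not stated, and it is read here only within a list, where it started at 50. At day 2 the medians of the megabases, in the same order, were 113, 94.1, 82.6 and 130. The third megabase, with most peaks, thus had the lowest day 2 median.

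Windows with day 2 peaks alone were mostly thin. No day 5 peak lay in 9 windows, of which 7 held day 2 peaks and 2 were empty on both days. One of the empty windows overlaps the interval left out. Among windows with at least 5 day 2 peaks, chr1:136300001-136400000 was the one with no day 5 peak. It held 6 day 2 peaks, and the strongest, chr1:136311343-136312821, scored 381 and was 1479 bp wide. The nearest day 5 peak lay 68.2 kb away. In 4 windows there were day 5 peaks but no kept day 2 peak, and 1 of them, chr1:138800001-138900000, had no day 2 peak at all.

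Taken peak by peak, neighbouring peaks of the stretch lay close together. The median gap between neighbours was 6.69 kb at day 2 (quartiles 1.79 to 17.8), against 12.8 kb over the whole list, and 25.6 kb at day 5 (6.68 to 67.6), against 33.2 kb. Joining peaks of both days less than 10 kb apart gave 96 groups. Of these, 45 had a single day 2 peak, 36 had 2 to 4, 13 had 5 or more and 2 had none. The 13 large groups held 42.5% of the day 2 peaks and 48.0% of the day 5 peaks. They kept 29 of 99 day 2 peaks (29.3%, 21.2 to 38.9), the middle groups 22 of 89 (24.7%, 16.9 to 34.6) and the single peaks 11 of 45 (24.4%, 14.2 to 38.7). These intervals overlap, and whether the share differs by group size was not tested. At the rates of their score bands the numbers would have been 27.2, 29.6 and 9.43, which as shares of the peaks lie inside the intervals above.

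The largest group lay at chr1:137546831-137600036, where 19 day 2 peaks covered 25.0% and 10 day 5 peaks 6.92% of 53.2 kb. Just before it, chr1:137512285-137536261 held 8 day 2 and 5 day 5 peaks in 24.0 kb. After it, chr1:137649326-137695471 held 13 and 6 in 46.1 kb. On the other side of Myog, chr1:135949751-135997061 held 10 and 3 in 47.3 kb. The next largest groups had 6 day 2 peaks each and differed at day 5. Those at chr1:135105990-135133913 and chr1:137376301-137389452 had no day 5 peak, that at chr1:135712027-135740411 had 1 and that at chr1:135787908-135808557 had 2. In the first 2 of these the highest day 2 score was 169 and 106, and in the last it was 1217.

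**Figure D2:**
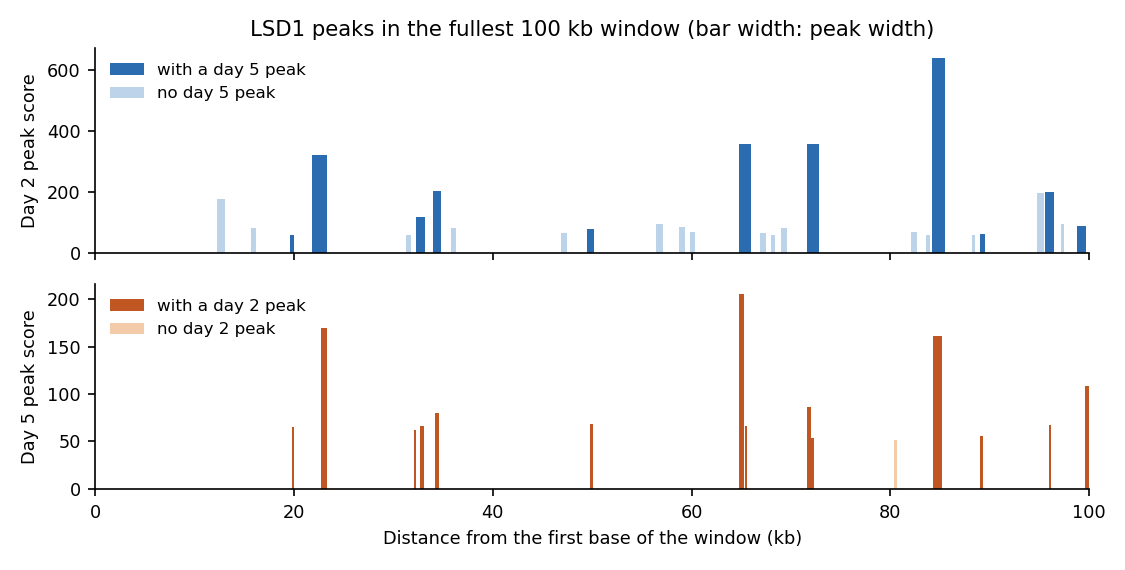
LSD1 peaks in the fullest 100 kb window of the stretch at day 2 (top) and day 5 (bottom), by distance from the first base of the window in kb. Each bar spans 1 peak and its height is the peak score, which is on a separate scale in each list; the highest bar reaches 640.5 at day 2 and 205 at day 5, at different sites.

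Within the fullest window 11 of 27 day 2 peaks were kept (40.7%, 24.5 to 59.3), where the score bands gave 7.35 (27.2%). That share and the 30.4% of the whole day 2 list lie inside the interval. A day 2 partner was found for 14 of 15 day 5 peaks, against 86.1% of the whole day 5 list. Day 2 peaks covered 19.1% of it and day 5 peaks 5.49%. The strongest day 2 peak there, chr1:137584161-137585480, scored 640.5 and held the day 5 peak chr1:137584300-137585170 with a score of 161. At day 5 the strongest was chr1:137564805-137565317, with 205, at a site where the day 2 peak scored 357.5. The order of the strongest sites in this window was therefore not the same in the lists. Day 2 peaks that overlapped 2 day 5 peaks numbered 6 in the stretch, and 3 of them lay in this window, at chr1:137532268-137533163, chr1:137564779-137565940 and chr1:137571573-137572805. In the first of these, 1 of the day 5 peaks reached beyond the edge of the day 2 peak. The others were chr1:137667343-137668373, chr1:137814957-137816684 and chr1:138130484-138131458. They make up 2.58% of the day 2 peaks of the stretch (1.19 to 5.503), near the 3.44% of the whole list.

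The strongest day 2 peaks of the stretch were spread over dense and sparse windows, and nearly all were kept. At the top was chr1:135789240-135790500, with a score of 1217 and place 86 in the whole day 2 list. Its partner chr1:135789357-135790262 was also the strongest day 5 peak of the stretch, with 413 and place 92 in its list. This site was therefore near the top of both lists. The second, chr1:135837693-135839375, scored 782 and its day 5 partner 165, at 0.976% and 8.70% of their lists counted from the top. The next but one, chr1:135673917-135674889, scored 697 and its partner 180, at 1.46% and 7.12%. With the first, these are the 3 sites among the 10 strongest of both days, and all lie below the interval around Myog.

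The other strong day 2 sites lay above 137 Mb, and there too the day 5 partners stood lower in their list. All these sites were picked for a high day 2 score, which by itself favours such an order. The peak chr1:137675138-137676453 scored 757, at 1.10% of the day 2 list, and its partner 162, at 9.14% of the day 5 list. At chr1:137042885-137044438 the day 2 score was 617 (2.09%) and the day 5 score 106 (23.9%). At chr1:138241701-138243168 it was 564 (2.72%) and 115 (19.9%). The peak chr1:138130484-138131458 scored 558 and overlapped day 5 peaks of 117 and 146. At chr1:137903878-137905053 the scores were 474 and 93.6. In the top 10% of the whole day 2 list 85.9% of peaks were kept. Of the 10 strongest day 2 peaks of the stretch, 9 were kept, the one described above in the fullest window included. The exception was chr1:138579116-138580783, with a score of 488, and a day 5 peak of score 89.8 lay 907 bp beyond it.

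**Figure D3:**
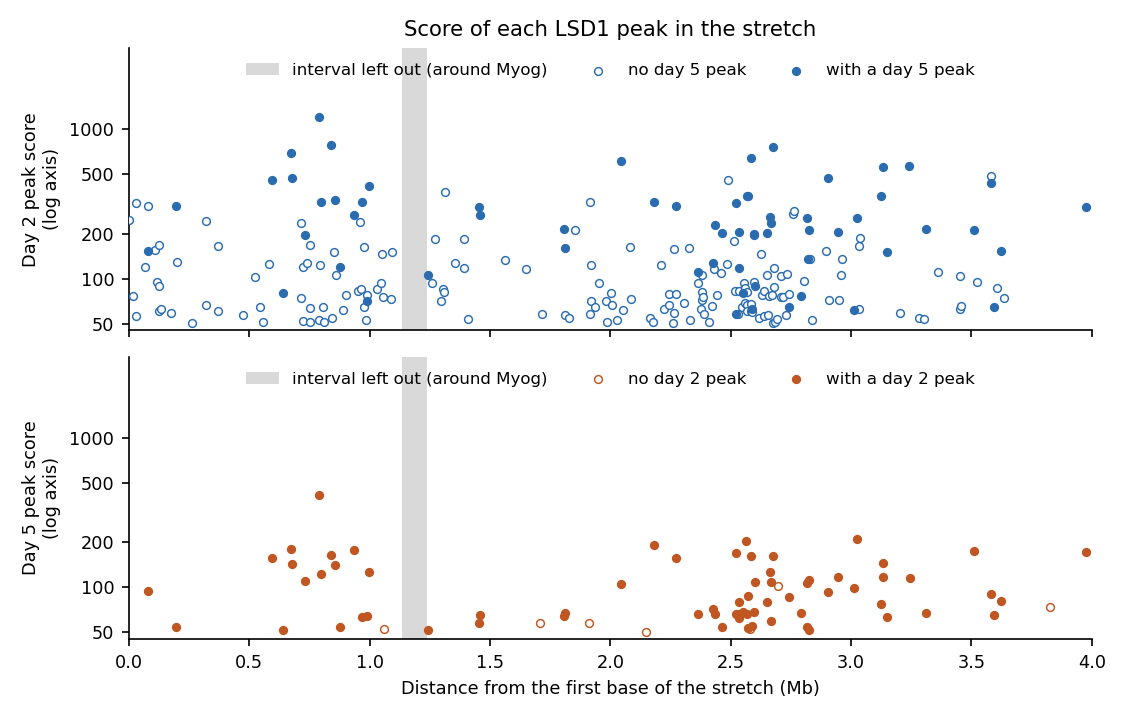
Score of every LSD1 peak of the stretch on a log axis at day 2 (top) and day 5 (bottom), by distance from the first base of the stretch in Mb. Filled points overlap a peak of the other day and open points do not. Most of the highest day 2 points are filled, while open ones reach a score of 488. The highest point of both panels, 1217 and 413, is the same site.

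The 10 strongest day 5 peaks of the stretch all had a day 2 partner, as did 99.8% of the top 10% of the whole day 5 list. Every partner of the 10 was in the band of the 25% highest day 2 scores. The second, chr1:138023353-138023804, scored 209, at 4.59% of the day 5 list from the top, and its day 2 partner scored 254, at 16.02% of the day 2 list. At chr1:137180310-137180917 the day 5 score was 192 (5.93%) and the day 2 score 328 (10.1%). At chr1:135935987-135936395 it was 177 (7.33%) and 266 (14.8%). As a share of each list, these sites stood higher at day 5 than at day 2. They were picked for a high day 5 score, which by itself favours such an order. The peak chr1:138510175-138510870 scored 176 over a day 2 peak of 211, chr1:138975962-138976541 scored 173 over one of 299.6, and chr1:137522754-137523283 scored 169.9 over one of 323. The last of the windows, where the second of these lies, held no other peak on either day.

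Day 5 members were more frequent among the highest scores of their list than 10% would give, and day 2 members were not. The day 5 median was 79.7 in the stretch (95% interval of the median 66.7 to 106) and 72.2 in the list, a value inside the interval. In the top 10% of the day 5 list were 14 of 75 members (18.7%, 11.5 to 28.9). The day 2 median was 93.9 in the stretch (82.2 to 108) and 104 in the list, and 20 of 233 members were in the top 10% (8.58%, 5.63 to 12.9). Of these 20, 17 were kept (85.0%, 64.0 to 94.8), against 85.9% of the top 10% of the whole list.

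At like score, the kept share of the stretch was above that of the whole list in the highest band, below it in the middle bands and close to it in the lowest. In the band of the 25% highest scores of the day 2 list, 42 of 56 members were kept (75%, 62.3 to 84.5), against 68.6% of all peaks there. In the next 25% it was 10 of 52 (19.2%, 10.8 to 31.9) against 30.2%. In the 25% below that it was 5 of 57 (8.77%, 3.81 to 18.9) against 15.4%, and in the lowest 5 of 68 (7.35%, 3.18 to 16.1) against 7.45%. Every interval of the stretch contains the value of the whole list. The lowest band held the most members, 68.

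**Figure D4:**
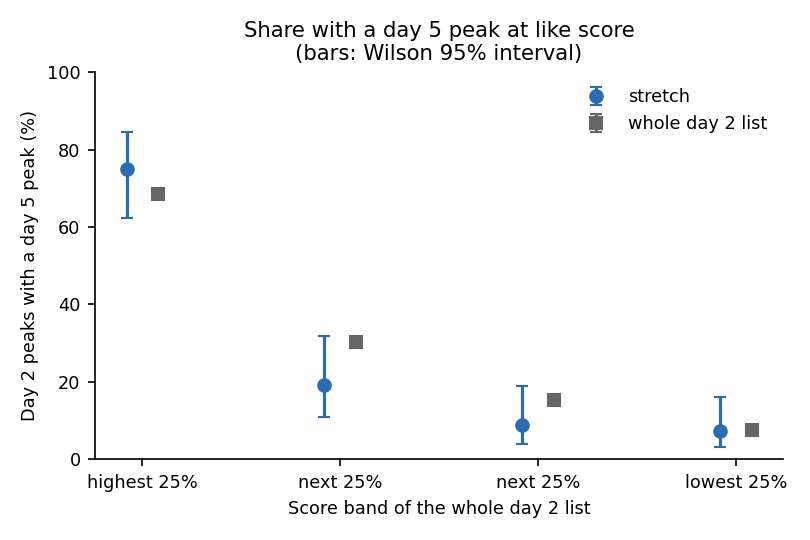
Share of day 2 peaks with a day 5 peak, in percent, for the stretch (circles) and the whole day 2 list (squares), by score band of 25% of the whole list. Bars are Wilson 95% intervals for counting error; the stretch goes from 75% in the highest band to 7.35% in the lowest, and each of its intervals contains the square beside it.

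Strong day 2 peaks without a day 5 peak were spread over the whole stretch. After chr1:138579116-138580783, described above, the strongest was chr1:137487093-137488210, with 461, and the nearest day 5 peak lay 21.9 kb away. The third, chr1:136311343-136312821, was the one in the window with no day 5 peak. Next were chr1:136913014-136914378 with 326, chr1:135026951-135028142 with 323 and chr1:135077540-135078580 with 309. Some of these had a day 5 peak just outside their edge, at 1.09 kb for the first and 379 bp for the last, while for the middle one the nearest lay 42.4 kb away. The peaks chr1:137761403-137762659 with 286 and chr1:137757963-137759466 with 272 are neighbours. The list ends with chr1:135000296-135000928 (245), which is also the first peak inside the lower limit of the stretch, and chr1:135320261-135321110 (244). Over all 171 day 2 peaks without a partner, the nearest day 5 peak was a median of 12.8 kb away (quartiles 5.49 to 33.3), and within 1 kb for 13 of them. With any day 5 peak within 1 kb counted, 32.2% of day 2 peaks had one in the stretch and 35.6% in the whole list. By overlap alone these shares were 26.6% and 30.4%.

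Nearly all day 5 sites of the stretch were also in the day 2 list. A day 2 partner was found for 68 of 75 day 5 peaks (90.7%, 82.0 to 95.4), against 86.1% of the whole day 5 list, a value inside the interval. The other 7 were narrow, 201 to 390 bp. The strongest of them, chr1:137695082-137695471, scored 102, and a weak day 2 peak of 53.4 lay 3.22 kb away. The most isolated, chr1:138824224-138824449, scored 74.1 and lay 151 kb from any day 2 peak. The other 5 scored 50.3 to 57.6, close to the lowest score in the list. They were chr1:136057970-136058218, chr1:136707274-136707539, chr1:136911684-136911924, chr1:137147504-137147704 and chr1:137580364-137580649. Of these, the first lay 602 bp from a day 2 peak and chr1:137147504-137147704 lay 17.95 kb from one.

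At shared sites of the stretch the day 5 peak was nearly always the narrower one and mostly lay inside the day 2 peak, as over the whole lists. The median width was 654 bp at day 2 (quartiles 492 to 849) and 351 bp at day 5 (270.5 to 482.5). Of 68 overlapping pairs, the day 5 peak was narrower in 67 (98.5%, against 99.2% of all pairs). It was wholly inside in 59 (86.8%, against 88.4% of all pairs). Dividing the day 2 width by the day 5 width gave a median of 2.25 (95% interval of the median 2.00 to 2.566). Over all pairs the median was 2.59 (2.557 to 2.614). These intervals overlap slightly and treat neighbouring pairs as independent, and whether the ratio differs was not tested. Paired midpoints lay 98.5 bp apart in the median (68.5 to 137), against 123.5 bp over all pairs. The day 5 midpoint lay at the higher coordinate in 37 pairs and at the lower in 31. In the exception, chr1:138010415-138010714, the day 2 peak was 300 bp wide and its partner 309 bp.

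**Figure D5:**
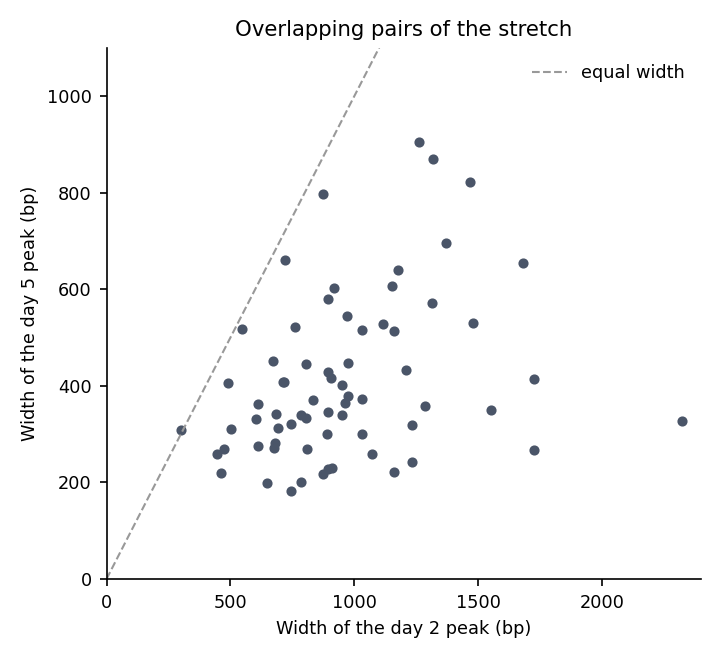
Width of the day 5 peak against that of the day 2 peak, in bp, for the 68 overlapping pairs of the stretch. Each point is a pair and the dashed line marks equal width; 67 of the points lie below it.

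Wider peaks tended to have higher scores in both lists. The Spearman correlation of score and width, given as a description since both come from the same reads, was 0.79 over the 233 day 2 members and 0.77 over the 75 day 5 members (0.77 and 0.73 over the whole lists). Between the days, scores of the 68 pairs had a Spearman correlation of 0.55 (0.42 over all pairs) and widths one of 0.37 (0.32). In 20 pairs (29.4%, against 23.3% of all pairs) the day 5 peak stood higher in its list, as a share of the list, than its day 2 partner. The widest day 2 peak, chr1:135994739-135997061, measured 2323 bp and scored 419, and its day 5 partner measured 328 bp. The second, chr1:136091545-136093486, measured 1942 bp and scored only 151, and it was not kept. The next were chr1:137814957-137816684 (1728 bp), chr1:135837693-135839375 (1683 bp) and chr1:138579116-138580783 (1668 bp). Peaks of at least 1 kb made up 13.7% of the day 2 members (9.90 to 18.7) and 21.0% of the whole day 2 list, a value above the interval. At day 5 the widest was chr1:135789357-135790262 with 906 bp, followed by chr1:137584300-137585170 (871 bp), chr1:138242160-138242981 (822 bp), chr1:137271439-137272235 (797 bp) and chr1:138510175-138510870 (696 bp).

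The longest intervals without any peak lay toward the upper end of the stretch. They were chr1:138636612-138824223 (188 kb) and chr1:138824450-138975745 (151 kb), parted by the isolated day 5 peak described above. Shorter ones lay at chr1:135368980-135473377 (104 kb), chr1:136457216-136561418 (104 kb) and chr1:136715786-136805574 (89.8 kb). Beyond the last member, chr1:138975746-138976641 at day 2, the next day 2 peak began at 139472800, with a score of 51.6. Below the lower limit the nearest day 2 peak, chr1:134980403-134981023, scored 70.7. Beside the interval left out, the nearest member below was chr1:136091545-136093486 (score 151) and the nearest peak inside was chr1:136140693-136142490 (597). At its upper limit the nearest peak inside was chr1:136235488-136236389 (84.0) and the nearest member chr1:136242704-136243487 (106). Whether reads can be placed uniquely in the intervals without peaks was not analysed here.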

How the data were processed

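LSD1 ChIP-seq peak lists of 1 library per day were analysed. The authors deposited 1 list for each LSD1 library, with peak positions in bp and the peak score as MACS gave it. Per the file headers, MACS was run in Galaxy. Bowtie2, deepTools and mm9 are named in the submitters' processing notes, without versions. Not given in the sources used here are the MACS version, its cutoff and its use of the input. Per the labels' protocols, chromatin was fixed with disuccinimidyl glutarate and formaldehyde.

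Starts were made to count from 1. Peaks were assigned to the stretch, to 100 kb windows and to megabases by midpoint. Peaks overlapping by at least 1 bp were paired. Intervals are 95% Wilson intervals for shares and binomial order-statistic intervals for medians, and cover counting error only. Densities use the length between the first and last peak of a chromosome, less the 4 Mb of the stretch for the rest of chromosome 1. Score bands (25% or 10% of the peaks each) were those of the whole day 2 list. With 1 library per group no test was run.

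Members and lists were chosen with earlier results of these data known. Named regions were the 10 strongest peaks of each day, the 10 strongest day 2 peaks without a partner, all day 5 peaks without one, the 5 widest peaks of each day, day 2 peaks overlapping at least 2 day 5 peaks, the 5 fullest windows, windows of at least 5 day 2 peaks without a day 5 peak, the 5 largest groups (all 4 tied for the last place) and the 5 longest intervals without a peak. Peaks named beside these, and the pair with the wider day 5 peak, were chosen after their values were seen. Alternatives covered the score limit, the interval around Myog, merging of peaks, the overlap, list length and the gap between groups. Overlap counting was tested on simulated peaks planted at a random part of the 44039 day 2 positions. Planted peaks overlapped their own position by design, and 100% of these positions were found. Of the other positions 0.759% were called. No peaks were planted away from day 2 positions, so neither value is an error rate. Software was SciPy 1.17.1, pandas 2.3.3 and NumPy 2.4.6 under Python 3.11.15, with Matplotlib 3.10.9 for plots.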

Additional observations from a re-analysis of the deposited data

How the results depend on the processing

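Of 31 alternatives for 8 values, 22 stayed within the interval of the value (counts and the ratio of covered lengths within 1.5 times) and 9 moved. With peaks at or above the median score of their own list, 108 day 2 and 41 day 5 peaks were left in the stretch, with median widths of 849.5 and 448 bp, which follows from leaving out low scores. Of these, 32.4% of day 2 and 87.8% of day 5 members were shared (31.8% and 86.2% of the whole lists cut alike). When 50% of each peak had to overlap, 9.87% of the day 2 members and 30.7% of the day 5 members were shared (9.65% and 24.4% of the whole lists). With the day 2 list made as long as the day 5 list, 57.3% of day 2 and 69.3% of day 5 members were shared (56.2% and 65.3%). In these alternatives the day 2 share of the stretch lay slightly above that of the whole list. By overlap of at least 1 bp, or with any peak within 1 kb counted, it lay below. A gap of 20 kb gave 55 groups. With 50% overlap and with equal list lengths, the shares of day 2 and day 5 members moved with those of the whole lists. The cause was not tested. Without the fullest window, an alternative chosen after seeing the data, 24.8% of day 2 members were kept and the ratio of covered lengths was 6.11. No paired analysis was possible because each group has 1 library, and for the same reason there was no replicate to leave out. Read depth is unknown, so a site missing from a list may lie below its limit.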
